A study of Mus musculus with 6 samples.

Results

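C1q, the recognition protein of the classical complement pathway, and the Fc receptors, which bind the constant part of antibodies, were examined in mouse hearts at E13.5, a mid-gestation stage. The genes were C1qa, C1qb, C1qc, Fcgr1, Fcgr2b, Fcgr3, Fcgr4, Fcer1g and Tyrobp. Of these 9 genes, 8 had an array row annotated to that gene alone, out of 14860 genes with such a row. Fcgr2b had none, and a row annotated to Fcgr2b and Fcgr3 together is given separately. The genes were chosen from results on these same arrays, so their levels in the 2 genotypes are a description and no test of them is offered as support.

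Control embryos were Hic2 FL/FL, with both copies of Hic2 flanked by recombination sites and no Cre. Conditional knockout embryos were Mesp1 Cre/+; Hic2 FL/FL, so both genotypes carried the floxed alleles and the Cre allele went with the knockout. Hic2 codes for a zinc finger transcription factor, and Mesp1 Cre acts in early mesoderm, from which most of the heart forms. Each genotype had 3 biological replicates, each a pool of 4 to 6 hearts on 1 Affymetrix array, and with so few arrays their number limits precision throughout.

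C1q is assembled from the A, B and C chains made by C1qa, C1qb and C1qc, and unlike most complement proteins, which come largely from the liver, it is made mainly by macrophages and related myeloid cells. Fcgr1, Fcgr3 and Fcgr4 are the activating receptors for immunoglobulin G in mouse, and Fcgr2b is the inhibitory one. The activating receptors signal through the gamma chain made by Fcer1g, and Tyrobp, also called DAP12, is a related adaptor used by other myeloid receptors. Both adaptors carry an ITAM, a tyrosine motif that recruits the kinase Syk. Macrophages settle in the heart before birth, and in whole-heart RNA more cells of a type and more RNA per cell cannot be told apart.

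The sequences just before the starts of these genes are shown because myeloid promoters are known to be bound by PU.1, the product of Spi1. The motif searched was the PU.1-type core GAGGAA on either strand, where the other strand reads TTCCTC. In 300-base RefSeq windows (build GRCm38.p6) from 250 bases before to 50 after the start, 5 of the 7 genes with a window held it (6 of 8 windows), against 28.3% of all 32851 windows. The table used held no window for C1qa or Tyrobp. Within 60 bases before the start, a limit set after the matches were seen, 4 of the 7 genes held it (5 of 8 windows), against 6.08% of all windows. The search was planned for the C1q genes and was widened to the other genes. Of the C1q genes with a window, C1qb alone held the motif within 60 bases. The 2 Fcgr3 windows overlap and hold the same match, and the shares are of all windows, not of those of other myeloid genes. A match is a string of letters and not a shown binding site. Any part of PU.1 in the knockout values was not tested. The 80-base stretches below run from 70 bases before the start, 5′ to 3′ on the gene's strand, with the motif in capitals.
C1qb, chr4:136886191-136886270, minus strand: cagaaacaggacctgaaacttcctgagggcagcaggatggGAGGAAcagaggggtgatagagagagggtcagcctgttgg
Fcgr1, chr3:96293960-96294039, minus strand: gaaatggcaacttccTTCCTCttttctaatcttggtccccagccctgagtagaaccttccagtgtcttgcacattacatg
Fcgr3, chr1:171059385-171059464, minus strand: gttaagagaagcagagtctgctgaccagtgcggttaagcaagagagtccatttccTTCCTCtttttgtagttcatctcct
Fcgr4, chr1:171018856-171018935, plus strand: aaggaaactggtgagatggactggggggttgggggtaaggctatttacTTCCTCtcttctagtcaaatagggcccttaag
C1qc, chr4:136892905-136892984, minus strand: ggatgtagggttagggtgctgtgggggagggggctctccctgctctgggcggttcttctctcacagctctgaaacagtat
In all 3 activating receptor genes the motif lay on the strand opposite to the gene, beginning at position -55 in Fcgr1, -22 in Fcgr4, and -15 or -6 in Fcgr3 for its 2 annotated starts (the stretch shown uses the former). In C1qb it lay on the gene's own strand at position -30. C1qc had its match farther off, at position -193, and so shows no capitals. The windows of Fcgr2b and Fcer1g did not contain these letters.

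The deposited values were on a log2 scale, from 2.08 to 14.5, with array medians between 7.41 and 7.48 and correlations between arrays of 0.993 to 0.997. Hic2 itself stood at 8.10, 8.26 and 8.14 in the controls and at 8.07, 7.96 and 8.04 in the knockouts, a difference of -0.14 (limma adjusted p = 0.314), and the place of its probes relative to the floxed part is not known here. The 5 measured heart muscle markers all had means of 10.21 or more over the 6 arrays, and 0 passed the limma threshold. Those with the smallest p were the cardiac transcription factor gene Nkx2-5 (-0.37 ± 0.10, SE, knockout arrays wholly below the controls), the calcium channel gene Ryr2 (-0.15 ± 0.10) and Myl2, the ventricular myosin light chain gene (0.07 ± 0.07). Control replicate 3 stood apart in the Y-linked genes Eif2s3y (4.36, against 8.51 to 9.64 on the other arrays) and Kdm5d (5.33, against 7.15 to 8.23). Knockout replicate 3 was the next lowest in both. The sample titles do not give the sex of the pooled embryos, and its part in the values of other genes was not tested. Probes differ in brightness, so a value says where a gene's row lies on the array's scale and does not rank genes by abundance.

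All 8 genes with a row of their own were higher in the knockout, as were 51.6% of all genes, and in each of them the lowest knockout array lay above the highest control array. Among all genes 14.2% were separated in this way with the knockout above. The median log2 difference of the 8 genes was 0.47, against 0.01 over all 14860 genes, and the single differences ran from 0.18 for Fcgr1 to 0.94 for Fcgr4. In the limma fit across all genes, 3 of the 8 (Fcgr4, C1qc and Fcgr3) had an adjusted p under 0.05, against 0.336% of all genes called higher and 0.559% called in either direction. Nothing is read from these counts, since the same contrast chose the genes.

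The 3 chains of C1q were higher by 0.45 to 0.52. C1qa, the A chain, stood at 7.95, 7.90 and 8.04 in control replicates 1, 2 and 3 and at 8.35, 8.47 and 8.63 in the knockouts. The groups were 0.31 apart at their nearest points, and the means differed by 0.52 ± 0.08 (SE), a 1.43-fold higher signal with a 95% interval of 1.25 to 1.64. C1qb, the B chain, stood at 9.45, 9.40 and 9.16 in the controls and at 9.71, 9.84 and 9.91 in the knockouts. Its control spread was the widest of the chains (SD 0.15, n = 3), because control replicate 3 was low, and the difference was 0.49 ± 0.09 (1.40-fold). C1qc, the C chain, stood at 8.02, 7.97 and 8.09 in the controls and at 8.38, 8.51 and 8.54 in the knockouts. Its difference of 0.45 ± 0.07 (1.37-fold) had the smallest standard error of the 8 genes. The 95% intervals of the log2 differences ran from 0.32 to 0.71 for C1qa, 0.27 to 0.71 for C1qb and 0.30 to 0.61 for C1qc.

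**Figure D1:**
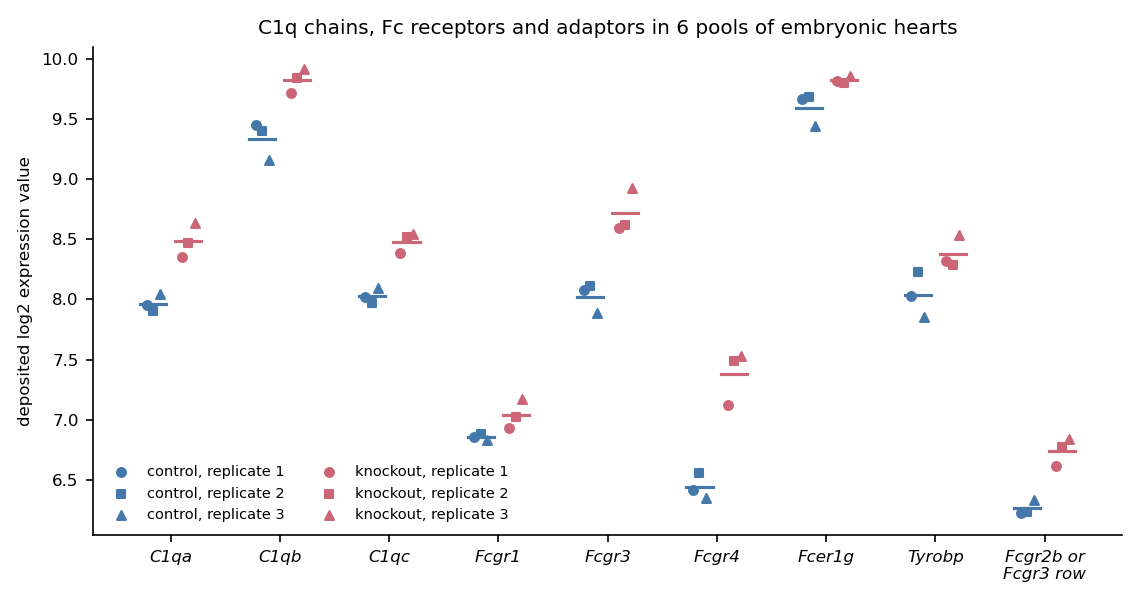
Deposited log2 expression value of each gene on each of the 6 arrays, with controls in blue, knockouts in red, a marker shape for each replicate number and a bar at each group's mean (n = 3). In every gene the 3 knockout points lie above the 3 control points, with a wide gap for Fcgr4 and a narrow one for Fcgr1 and Tyrobp.

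The activating Fc receptors were higher by 0.18 to 0.94. Fcgr4, which binds the IgG2 subclasses and is found on monocytes, macrophages and neutrophils, stood at 6.42, 6.56 and 6.35 in the controls and at 7.13, 7.49 and 7.53 in the knockouts. Its difference was 0.94 ± 0.12 (SE), or 1.92-fold with a 95% interval of 1.59 to 2.32, and it ranked 14 among all 14860 genes by size of increase. Fcgr3, a low-affinity receptor of macrophages and natural killer cells, stood at 8.07, 8.11 and 7.88 in the controls and at 8.60, 8.62 and 8.93 in the knockouts. The gap between its groups was 0.48, and the difference was 0.69 ± 0.11 (1.61-fold). Fcgr1, the high-affinity receptor, stood at 6.85, 6.89 and 6.83 in the controls and at 6.93, 7.02 and 7.17 in the knockouts. Its groups were separated by 0.04 only, and its difference of 0.18 ± 0.07 (1.14-fold) was the smallest of the 8. The 95% intervals of the log2 differences ran from 0.01 to 0.36 for Fcgr1, 0.44 to 0.94 for Fcgr3 and 0.67 to 1.21 for Fcgr4.

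The row annotated to both Fcgr2b and Fcgr3 stood at 6.23, 6.23 and 6.33 in the controls and at 6.61, 6.78 and 6.84 in the knockouts. Its groups did not overlap, and its difference was 0.48 ± 0.08 (SE, from a fit over every row of the array). Signal in that row cannot be divided between the inhibitory and the activating receptor, so no value is given for Fcgr2b alone. The 2 genes are also closely related in sequence in their antibody-binding parts, and whether the Fcgr3 row took up Fcgr2b signal was not tested.

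The adaptor genes showed smaller differences than the receptor genes Fcgr3 and Fcgr4. Fcer1g stood at 9.66, 9.68 and 9.44 in the controls and at 9.81, 9.80 and 9.85 in the knockouts, a difference of 0.23 ± 0.08 (SE), or 1.17-fold. The knockouts lay close together (SD 0.03, n = 3) and the control spread (SD 0.13, n = 3) came from control replicate 3. Tyrobp stood at 8.03, 8.23 and 7.85 in the controls and at 8.32, 8.28 and 8.54 in the knockouts, a difference of 0.34 ± 0.11 (1.27-fold). Control replicate 2 lay 0.05 below the lowest knockout array, so this gene's groups were barely apart.

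The arrays kept a similar order from gene to gene. Knockout replicate 3 had the highest value of all 6 arrays in 8 of the 8 genes. Control replicate 3 had the lowest in 6 of them, and control replicate 2 in the other 2, C1qa and C1qc. After each gene's group means were removed, 25 of the 28 gene pairs correlated above 0, with a median r of 0.61 over the 6 arrays. C1qa and C1qc followed each other closely (r = 0.91), whereas C1qb went with Fcer1g (r = 0.87) more than with C1qa (r = 0.14) or C1qc (r = 0.02). These correlations rest on 6 arrays that share pool, array and normalisation, and are a description. Without knockout replicate 3 the median difference of the 8 genes was 0.43, and without control replicate 3 it was 0.44. In either case 0 of the 8 passed the limma threshold, where 14 and 13 of all 14860 genes passed. Without control replicate 1, control replicate 2 or knockout replicate 2 the count was also 0, where 11, 3 and 28 of all genes passed. Without knockout replicate 1 only Fcgr4 passed, where 26 of all genes did. With all 6 arrays 83 of all genes passed.

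Of 25 listed macrophage markers 21 were measured, with a median difference of 0.17, and 1 passed the limma threshold, against 0.336% of all genes called higher. That gene was the scavenger receptor gene Msr1 (0.87 ± 0.13, SE, adjusted p = 0.0440), which passed in 0 of the 6 refits with 1 array left out (adjusted p 0.0605 to 0.154). The mean was higher in the knockout in 20 of the 21 markers, against 51.6% of all genes. In 8 of the 21 the knockout arrays lay wholly above the controls, against 14.2% of all genes, and in the other 13 the groups overlapped. Msr1 and the lysosomal protease gene Ctss (0.58 ± 0.11) were the 2 markers with a difference above that of the lowest C1q chain. Of the receptors that define tissue macrophages, Csf1r differed by 0.13 ± 0.07 and Adgre1 by 0.17 ± 0.10, and neither passed. These genes, with Ctss and Spi1, were picked out after their values were seen. Spi1, which makes PU.1, stood at 7.97, 7.85 and 7.87 in the controls and at 8.29, 8.24 and 8.30 in the knockouts, a difference of 0.38 ± 0.06 (limma adjusted p = 0.0517) that did not pass. With 1 array left out Spi1 passed in 0 of 6 refits, at adjusted p of 0.0999 to 0.166. In those refits, the same as for Msr1, 3 to 28 of all 14860 genes passed. The mean of the C1q chains minus the mean of the 21 markers was 0.85, 0.70 and 0.89 in the controls and 0.97, 1.06 and 1.20 in the knockouts, and the group means differed by 0.26. The C1q genes were chosen for being higher on these arrays, and the marker lists were chosen with earlier results of these data known. Nothing is therefore read from this difference or from the marker counts.

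**Figure D2:**
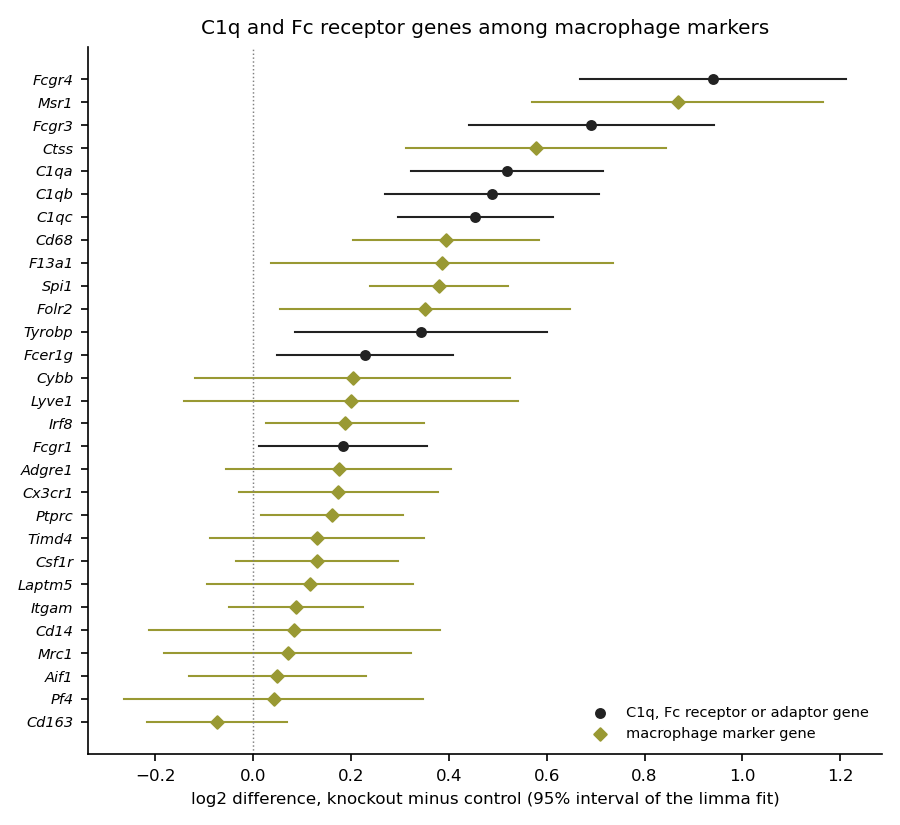
Log2 difference, knockout minus control, with the 95% interval of the limma fit (3 arrays per genotype) for the 8 C1q, Fc receptor and adaptor genes (black circles) and 21 macrophage markers (olive diamonds), ordered by size. Fcgr4 stands at the top at 0.94, followed by the marker Msr1 at 0.87. The C1q chains lie between 0.45 and 0.52, below the marker Ctss at 0.58. Tyrobp at 0.34, Fcer1g at 0.23 and Fcgr1 at 0.18 lie among the other markers.

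Erythroid markers were the other blood cell list with genes past the threshold. They were lower in 12 of 12 measured, with a median of -0.82 and 5 past the limma threshold (Trim10, Alas2, Slc4a1, Epb42 and Rhd), against 0.222% of all genes called lower. With 1 array left out the number of 6 refits these 5 passed ran from 0 (Rhd) to 5 (Trim10 and Alas2). In those refits 3 to 28 of all 14860 genes passed. The marker lists were chosen with earlier results of these data known, so nothing is read from these counts. The summed level of the erythroid markers, the log2 of the sum of unlogged values, ran from 15.54 to 15.67 in the controls and from 15.23 to 15.36 in the knockouts. Megakaryocyte and platelet markers were lower in 4 of 4 measured, with a median of -0.33, overlapping groups in all 4 and 0 passed. At an unadjusted p under 0.05, 3 of these were lower, Ppbp (-0.35 ± 0.13, SE), the integrin gene Itga2b (-0.38 ± 0.15) and Treml1 (-0.22 ± 0.09), where 6.8% of all genes were. Mast cell markers, which matter because mast cells also use Fcer1g, were higher in 5 of 8 genes, with a median of 0.05 and 0 passed. The smallest p belonged to the mast cell protease gene Cpa3 (-0.38 ± 0.10), the transcription factor gene Gata2 (0.19 ± 0.06) and the growth factor receptor gene Kit (0.24 ± 0.10). The mast cell receptor genes Fcer1a (3.69 in the controls, 3.75 in the knockouts) and Ms4a2 (3.36 and 3.40), named after their values were seen, were near the bottom of the array's range. Monocyte and neutrophil markers were higher in 9 of 13 genes, with a median of 0.04 and 0 passed. The smallest p belonged to Plac8 (-0.25 ± 0.07), the monocyte chemokine receptor gene Ccr2 (-0.34 ± 0.10) and the neutrophil protease gene Ctsg (0.20 ± 0.08). Lymphocyte and natural killer markers had a median of -0.09 over 9 genes, all at levels of 6.49 or less, and 0 passed, with the smallest p in Ncr1 (-0.18 ± 0.07), Ms4a1 (0.13 ± 0.08) and Gzmb (-0.37 ± 0.25). Outside the blood, endothelial and endocardial markers had a median of 0.01 over 10 genes and 0 passed, with the smallest p in Emcn (0.35 ± 0.06), Flt1 (0.21 ± 0.09) and Nfatc1 (0.12 ± 0.07). The summed log2 level of the macrophage markers ran from 12.41 to 12.62 in the controls and from 12.69 to 12.78 in the knockouts. The part of these cell types, and of control replicate 3, in the C1q and Fc receptor values was not tested.

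**Figure D3:**
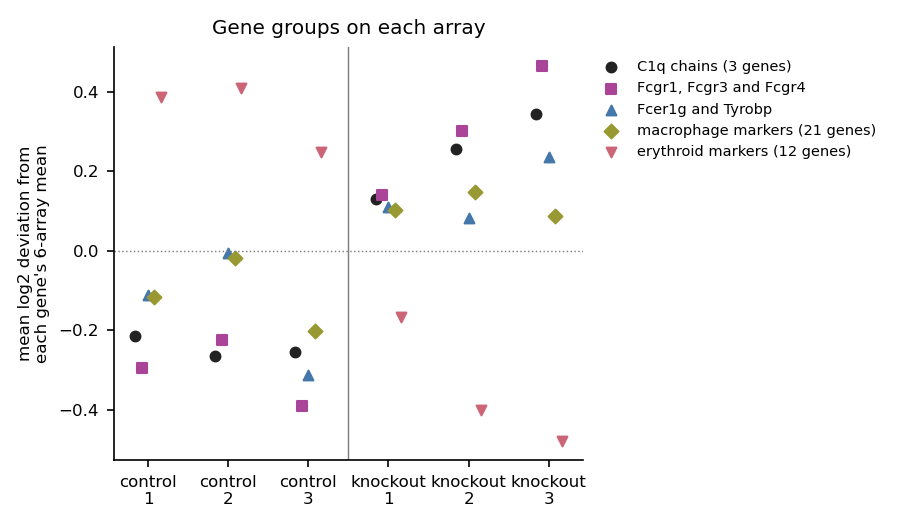
Mean log2 deviation of each gene group from its genes' 6-array means, by array, for the C1q chains, Fcgr1, Fcgr3 and Fcgr4, the adaptors, 21 macrophage markers and 12 erythroid markers. Knockout replicate 3 is highest for C1q (0.34) and the Fc receptors (0.47), while the macrophage markers are highest on knockout replicate 2 (0.15) and the erythroid markers are lowest on knockout replicate 3 (-0.48).

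The other genes of the complement and Fc receptor pathways mostly differed by less than C1q. Nothing is read from this, since C1q was chosen for being higher on these arrays. The other pathway lists were also chosen with earlier results of these data known. Of 181 such genes listed, 138 were measured, with differences from -0.28 to 0.46 and a median of 0.02, and by the limma test over all genes 0 were called. At an unadjusted p under 0.05, 16 were higher and 2 lower, where 10.7% of all genes were higher and 6.8% lower at that level. With array weights 7 were called higher and 1 lower, where 733 of all 14860 genes were called in either direction. With a variance trend 2 were higher, where 203 of all 14860 genes were called. Among brighter rows 3 of 33 were higher (C1qtnf6, Mmrn2 and Rac2), where 443 of 7430 genes were called.

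Among complement genes, the proteases and recognition proteins of the classical and lectin pathways had a median of 0.04 over 12 measured genes. The smallest p belonged to Crp, a pentraxin that can bind C1q (0.26 ± 0.06, SE), then Apcs (0.20 ± 0.12) and the ficolin Fcna (0.09 ± 0.08). C1ra, the protease that C1q activates, was named after its value was seen and differed by 0.02 ± 0.10 at a low level of 5.58 in the controls and 5.60 in the knockouts. Later components of the cascade had a median of 0.02 over 7 genes, led by C8g (0.28 ± 0.08), C9 (-0.09 ± 0.06) and C8b (0.08 ± 0.07). Inhibitors had a median of 0.01 over 10 genes, led by clusterin, Clu (0.18 ± 0.06), the membrane regulator Cr1l (0.21 ± 0.08) and Cd55 (0.21 ± 0.10). Complement receptors had a median of 0.05 over 12 genes, led by the mitochondrial C1q-binding protein C1qbp (0.25 ± 0.07), the anaphylatoxin receptor C3ar1 (0.24 ± 0.10) and the engulfment receptor Megf10 (-0.13 ± 0.07). In each of these lists 0 genes passed the limma threshold.

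Proteins that share the globular C1q domain lay on both sides of 0. Of 22 measured, 8 were higher and the median was -0.02, with 0 passed. C1qtnf6 (0.43 ± 0.08, SE) and the endothelial matrix gene Mmrn2 (0.30 ± 0.05) were higher on all 3 knockout arrays, and C1ql3 (-0.26 ± 0.06) was lower on all 3. In the whole list 3 of 22 genes had knockout arrays wholly above the controls and 2 wholly below. Among all 14860 genes 2114 lay wholly above and 1543 wholly below. The limma adjusted p of C1qtnf6 was 0.0664 and that of Mmrn2 was 0.0690, and both passed with a variance trend, with array weights and when only brighter rows were tested.

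On the Fc receptor side, other Fc receptors and relatives had a median of 0.02 over 12 genes, and in none were the groups separate. The smallest p belonged to the cytosolic antibody receptor Trim21 (0.16 ± 0.07, SE), Fcrla (0.12 ± 0.08) and Fcrlb (0.13 ± 0.10). Other signalling adaptors, most of them of lymphocytes and not all with an ITAM, had a median of 0.00 over 7 genes. They were led by Cd79b (0.12 ± 0.08), Cd3g (-0.22 ± 0.15) and Cd3d (-0.05 ± 0.07). Receptors that pair with Tyrobp or Fcer1g had a median of 0.05 over 18 genes. Among them Cd300ld (0.46 ± 0.13) and Trem2, the lipid receptor that signals through Tyrobp (0.35 ± 0.10), had all knockout arrays above the controls, and the natural killer receptor Ncr1 (-0.18 ± 0.07) had them below. Of all 14860 genes 2114 were separated with the knockout above and 1543 with it below.

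Below the receptors, Src and Syk family kinases and their effectors had a median of -0.02 over 21 genes, with 9 higher. In 3 of the 21, Rac2 among them, the knockout arrays lay wholly above the controls, against 14.2% of all genes. Rac2, the small GTPase of blood cells, differed by 0.38 ± 0.10 (SE) and passed in 1 of the 14 alternatives, that with brighter rows, Cbl by -0.16 ± 0.08 and the adaptor Lcp2 by 0.15 ± 0.08. Syk, the kinase that binds the ITAM, was named after its value was seen and differed by -0.10 ± 0.07, from 8.45 in the controls to 8.35. Inhibitory receptors and phosphatases had a median of 0.06 over 17 genes, 13 of them higher. In 4 of the 17 the knockout arrays lay wholly above the controls, against 14.2% of all genes. Among these 4 were Cd72 (0.36 ± 0.07), the adaptor Dok2 (0.33 ± 0.09) and Clec12a (0.24 ± 0.07), which had the smallest p of the list. In the 5 lists of Fc receptor relatives, adaptors, pairing receptors, kinases and inhibitory genes, 0 genes passed the limma threshold.

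**Figure D4:**
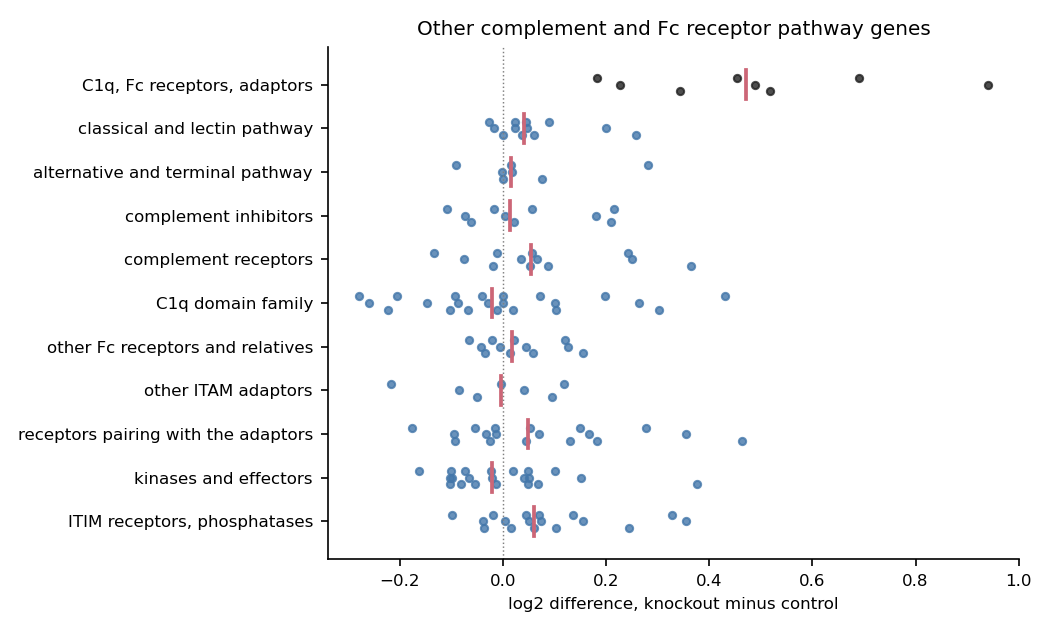
Log2 difference, knockout minus control, of each measured gene (point) in the C1q, Fc receptor and adaptor genes (black, chosen from these arrays) and in 10 lists of other pathway genes (blue), with a red bar at each list's median. The medians of the 10 lists lie between -0.02 and 0.06, and the median of the first group is 0.47.

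Most of these genes lie in clusters, and the measured genes beside them differed by -0.21 to 0.30. C1qb, C1qc and C1qa follow each other on chromosome 4 with 0 other genes between them in the RefSeq gene table, and the 2 nearest measured genes on each side were the demethylase gene Kdm1a (-0.21 ± 0.08, SE), Tex46 (-0.13 ± 0.13), the ephrin receptor gene Epha8 (-0.09 ± 0.07) and Zbtb40 (-0.04 ± 0.06). In all 4 the groups overlapped and by limma 0 passed, with 1, Kdm1a, lower at an unadjusted p under 0.05, as were 6.8% of all genes. Fcgr2b, Fcgr4, Fcgr3 and Fcer1g share a stretch of chromosome 1 with 6 other measured genes. These 6 and the 4 nearest outside differed by -0.10 to 0.30, with 0 past the limma threshold (smallest adjusted p = 0.193) and 2 higher at an unadjusted p under 0.05, as were 10.7% of all genes. The latter were Cfap126 (0.30 ± 0.12), whose groups overlapped, and Sdhc, a subunit of succinate dehydrogenase (0.20 ± 0.06), whose groups did not.

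The 10 genes whose profile over the 6 arrays was most like the mean of the 8 were then listed. Among 7121 other genes with a range of at least 0.3, Pearson's r with that mean was highest for Castor1 (0.997), the arginine sensor of the mTOR pathway, and Nr2c2ap (0.995). Next came the collagen-folding chaperone gene Fkbp7 (0.995), the secreted phospholipase gene Pla2g5 (0.995), Npdc1 (0.994) and the lysosomal enzyme gene Aga (0.994). The signalling regulator Rgs2 (0.993), the glycogen phosphatase gene Epm2a (0.993), the sulfide oxidase gene Sqor (0.992) and Zfp277 (0.989) completed the 10. With 551 genes above an r of 0.9 on 6 arrays, such likeness is common in these data. Of the 10, Pla2g5 (0.73 ± 0.08, SE, adjusted p = 0.0199) and Epm2a (0.44 ± 0.07, adjusted p = 0.0495) passed the limma threshold, against 0.559% of all genes, though genes picked for following a mean that is higher in the knockout are favoured to pass. With 1 array left out Pla2g5 passed in 1 of 6 refits and Epm2a in 0, where 3 to 28 of all 14860 genes passed.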

How the data were processed

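Total RNA from 3 control and 3 conditional knockout pools was labelled for Affymetrix arrays. Per the submitters' processing notes, the deposited log2 values came from RMA, run in Affymetrix Expression Console. RMA gives arrays a shared signal distribution and compresses changes of dim rows. Software version and annotation release are not stated in the sources used here, and no detection calls were used.

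Of 23332 rows, 14996 carried exactly 1 gene symbol in the platform annotation, and the brightest row per gene left 14860 genes with no filter on level. Genes were compared with limma 3.58.1 in R 4.3.3 (lmFit and eBayes, two-sided, knockout minus control, 7.46 degrees of freedom), with Benjamini-Hochberg adjusted p under 0.05 over all genes. The fit was tested on simulated data with independent noise for each gene. That test does not cover effects that many genes share on an array. Errors are standard errors of this fit unless marked SD. The members and lists were chosen with earlier results of these data known. The text names all members, and in each pathway and marker list the genes past the threshold or otherwise up to 3 with the smallest p, the nearest neighbours and the 10 most alike genes. Alternatives were 8 other settings and leaving out each of the 6 arrays. Proteins were not analysed here.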

Additional observations from a re-analysis of the deposited data

Results flagged for a closer look

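The row annotated to both Fcgr2b and Fcgr3 lies outside the set of single-gene rows and was set aside in the comparison of genes. It was 0.48 higher in the knockout on the log2 scale, with all 3 knockout arrays above all 3 control arrays. In the limma fit over every row its adjusted p was 0.19, so it did not pass.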

How the results depend on the processing

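All 8 members stayed higher in the knockout in each of the 14 alternative settings that tested them (3 of them under the brightness filter). Their median difference ran from 0.43 to 0.52 with 1 array left out and from 0.45 to 0.49 otherwise, and C1q relative to the macrophage markers from 0.20 to 0.31. The count of members past the threshold, 3 of 8, was 5 with array weights and with a variance trend, and 0 when every row was tested. It was 2 after median centring, after quantile normalisation and among the 3 members kept by the brightness filter. It ranged from 0 to 1 with 1 array left out, and the 1 was Fcgr4, without knockout replicate 1. Calls over all genes numbered 83, and 733 with array weights, 203 with a variance trend, 443 among brighter rows and 0 over every row, with 3 to 28 when 1 array was left out. Deviations of same-numbered arrays had correlations of -0.04, 0.02 and 0.13, and those of differently numbered arrays ran from -0.23 to 0.22. With 3 arrays per group these values cannot show whether the replicate numbers pair the samples. With the replicate number as a block 38 genes and 1 member, Fcgr4, passed. Some settings hold fewer arrays or genes, and the fit over every row holds more rows. The cause of these shifts was not tested. Without detection calls, low values cannot be told from background.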
